A study of Homo sapiens
Rattus norvegicus and Homo sapiens with 10 samples.

Results

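The comparison asked how gene expression in glioblastoma xenografts that grew back after laser ablation differed from that in xenografts never ablated, gene by gene and with each tumour shown. It used 6 of the 10 libraries of the series, 3 from recurrent and 3 from primary tumours, and the 15928 of 62754 genes in the deposited table that passed edgeR's default filter on low counts. All 6 tumours were grown from U251N, an established human glioblastoma cell line, implanted into the brains of adult female RNU/RNU rats. These animals are athymic and lack normal T cells. Recurrent tumours (labelled post-LITT) had been heated with laser interstitial thermal therapy under diffusion-weighted magnetic resonance guidance up to the tumour margins, and the animals were then followed until the tumour returned. Primary tumours (labelled pre-LITT) were not ablated, so the groups differ in ablation and may differ in tumour age, which the labels do not give. The labels do not state whether every library comes from a different animal, and the p-values measure the spread between these samples, which may in part be technical.

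In laser interstitial thermal therapy a fibre placed in the tumour delivers light that is absorbed as heat, and cells near the fibre die by coagulation while those at the rim receive a sublethal dose. Cells that survive heat are known to induce chaperones of the heat shock family. Glioblastoma cells in poorly perfused tissue switch on the hypoxia response, in which HIF transcription factors raise genes of angiogenesis, glucose uptake and matrix modification. Glioblastomas also mix cell states that resemble astrocytes, mesenchymal cells and neural or oligodendrocyte progenitors.

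Library totals were 25386280, 25316552 and 39714714 counts for primary replicates 1 to 3, and 20321590, 25299612 and 24940392 counts for recurrent replicates 1 to 3. Per the labels, graft (human) reads made up 42.52%, 45.38% and 64.4% of the reads in the primary tumours and 29.44%, 42.67% and 33.05% in the recurrent tumours, so the recurrent libraries held more host reads, apart from an overlap between recurrent replicate 2 and primary replicate 1. RNA integrity numbers ran from 7.8 to 8.9 and from 8.1 to 8.8. Library names start with IL for the primary tumours and recurrent replicate 1, and with NL for recurrent replicates 2 and 3. What the prefix means is not given. Where recurrent replicates 2 and 3 differ from all other tumours, the difference cannot be told apart from the prefix. Primary replicate 2 stood apart on the first principal component, at -63.7. Recurrent replicates 2 and 3, the NL libraries, lay at the opposite end, at 40.6 and 40.9. Recurrent replicate 1 (3.8) lay nearer to primary replicates 1 and 3 (-9.3 and -12.3) than to the other recurrent tumours. Primary replicate 2 was the highest of the 6 tumours in 27.5% of the tested genes and the lowest in 28.6%. No other tumour exceeded 18.8% either way. Primary replicate 2 also had the lowest RNA integrity number, 7.8, and the largest share of structural small RNAs, 14.5% of its counts. Markers of the line were high in every tumour: vimentin (VIM) stood between 2693 and 3789.9 counts per 1000000 (CPM, with totals scaled by edgeR's TMM method) and CD44 between 2226 and 2635 CPM. CDKN2A, a cell-cycle inhibitor often deleted in glioblastoma, had 0 counts in all 6 tumours, where a count of 0 allows up to 3 counts, or 0.0737 to 0.151 CPM depending on the tumour.

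Markers of rat cells were read against the human gene table, so only host reads that resemble human sequence could add to them. Of 13 microglia and macrophage markers, 8 were at 0 in every tumour (CX3CR1, P2RY12, AIF1, PTPRC, C1QA, C1QB, C1QC and TYROBP). The 13 markers summed to 22.2 to 28.2 CPM in primary and 24.7 to 28.3 CPM in recurrent tumours, mostly from CD68 (19.2 to 25.5 CPM). Of 11 blood cell markers, 9 were at 0 in every tumour. The 12 endothelial and pericyte markers summed to 12.3 to 22.1 CPM and 16.7 to 18.5 CPM, with CLDN5, the claudin of brain vessels, at 0. The 10 oligodendrocyte markers summed to 172 to 184 CPM and 121 to 209 CPM, mostly from CNP (111 to 185 CPM). The 12 neuron markers summed to 854 to 1399 CPM and 769.7 to 1049 CPM, mostly from the neurofilament gene NEFL. A culture of the line held NEFL too, at 477 CPM of its library total, and CD68 at 21.9 CPM. RBFOX3 had 0 counts in the culture and 307, 196 and 212 in the control brains. It stood at 1.31, 0.422 and 0.123 CPM in primary and 5.50, 1.33 and 0.963 CPM in recurrent tumours. Of the 5 neuron markers tested, 2 were higher and 3 lower in recurrent tumours. In bulk tissue, fewer cells of a type and less RNA per cell cannot be told apart.

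Between the groups 1 gene passed the test, a readthrough gene at 0 in all recurrent tumours. Most genes of the hypoxia response and of the astrocyte-like state stood lower in recurrent tumours, and so did a set of 15 genes led by the proteoglycan BGN that includes IGFBP3, COL1A1 and POSTN (log2 fold changes from -1.83 to -0.75). MKI67, PDGFRA, MET, FGF2 and a set of 15 genes led by KCNH5, SPAG17, GLDC and PRSS12 stood higher (0.69 to 1.66 in that set). Apart from the readthrough gene none of these differences passed edgeR's quasi-likelihood test after Benjamini-Hochberg adjustment over all genes. That test called 0 genes higher (0% of those tested) and 1 lower (0.00628%) at a threshold of 0.05. Without adjustment, p was under 0.05 for 809 genes (5.08%) that stood higher and 669 (4.2%) that stood lower. In 1264 genes (7.94%) every recurrent tumour stood above every primary tumour, and in 1182 genes (7.42%) every recurrent tumour stood below. DESeq2, run on the same counts, called 66 genes higher (0.41% of the 16110 given an adjusted p) and 42 lower (0.261%). Limma-voom called 0, with 1412 genes at an unadjusted p under 0.05. Leaving out a single tumour gave 0 calls when it was primary replicate 2 or recurrent replicate 3, 2 when it was recurrent replicate 2, 3 when it was primary replicate 1, 4 when it was primary replicate 3, and 32 (27 higher and 5 lower) when it was recurrent replicate 1. Without recurrent replicate 1 the groups also differ in library name prefix throughout, so group and prefix cannot be told apart there.

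Among 11190 genes with a mean of at least 5 CPM, the median size of the log2 fold change was 0.17 and its median 95% interval reached 0.40 to either side. Changes of 2-fold or more were seen in 71 genes higher and 47 lower, of which 33 and 37 had groups that did not overlap, and changes of 4-fold or more in 7 and 7. Counts were also simulated for the same group sizes, with independent spread between tumours and changes only in genes above 5 CPM. On these the test called 33 of 50 genes lowered and 35 of 50 genes raised by 1 on the log2 scale. It called 49 of 50 and 50 of 50 at a change of 2, and 12 of 15336 unchanged genes. No simulated tumour was set apart as primary replicate 2 was, so these rates need not hold for the real tumours. The 15928 tested genes split almost evenly, with 7818 (49.1%) above and 8110 (50.9%) below a log2 fold change of 0. The median over all tested genes was -0.01.

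**Figure D1:**
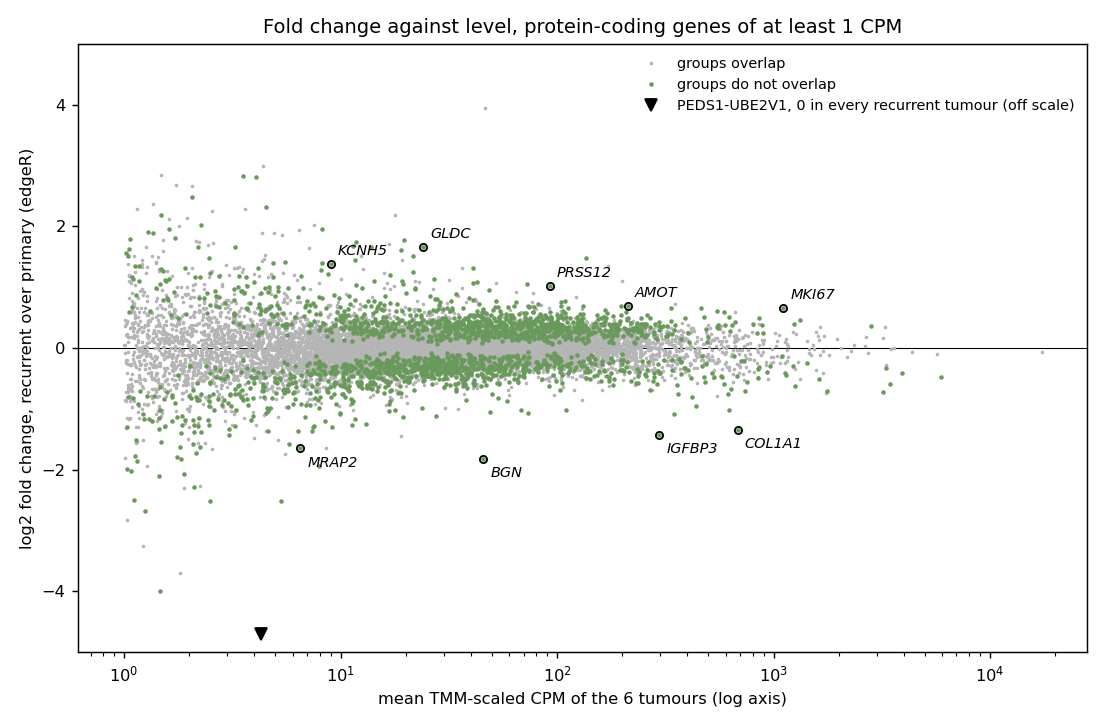
Mean level of each protein-coding gene over the 6 tumours (TMM-scaled CPM, log axis) against its log2 fold change, recurrent over primary, for genes of at least 1 CPM. Each point is a gene, green where the groups do not overlap, 9 genes are named, and the triangle marks PEDS1-UBE2V1, at 0 in all 3 recurrent tumours; most points lie near 0 at every level.

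The called gene was the readthrough gene PEDS1-UBE2V1 (ENSG00000124208.16), on the minus strand of chromosome 20 from 50081124 to 50153637 in GRCh38. It joins exons of PEDS1, the plasmanylethanolamine desaturase that makes the vinyl ether bond of plasmalogens, to those of UBE2V1, an inactive partner of the ubiquitin-conjugating enzyme UBE2N. Its reads can be told from those of the separate genes only at the junction where a PEDS1 exon (50127975 to 50128187) is spliced to a UBE2V1 exon (50096672 to 50096820), since all 2757 bases of the annotated transcript lie within a transcript of PEDS1 (691 bases) or UBE2V1 (2066 bases). The coding sequence on both sides of that junction is shown beside the same exon ends in the separate transcripts (GENCODE 29, GRCh38, minus strand, 5′ to 3′, with the UBE2V1 exon in capitals).
PEDS1-UBE2V1: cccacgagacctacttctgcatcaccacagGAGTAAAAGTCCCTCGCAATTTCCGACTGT
PEDS1: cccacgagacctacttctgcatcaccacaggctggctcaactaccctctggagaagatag
UBE2V1: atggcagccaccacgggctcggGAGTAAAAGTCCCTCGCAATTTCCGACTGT

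The readthrough gene had 310.2, 161 and 279.6 estimated counts in the primary tumours, or 11.9, 6.80 and 6.88 CPM, and 0 counts in all 3 recurrent tumours. Its mean in primary tumours was 8.54 ± 2.94 CPM (SD, n = 3). That is 202-fold above a floor of 3 counts over the recurrent group (0.0422 CPM). The ratio allows for counting error in the recurrent tumours only, not for the spread of the primary tumours or the division of shared reads. The gene had an edgeR adjusted p = 0.0216, a DESeq2 adjusted p = 6.39e-12 and a limma-voom adjusted p = 0.117. The call was lost without primary replicate 2 (edgeR adjusted p = 0.158) or recurrent replicate 3 (0.0866), and when the fit included the graft percentage (0.109) or the prefix of the library name (0.0709). The culture of the line held 94.2 counts of it in a library of 65058642 counts, or 1.45 CPM. PEDS1 itself stood at 84.6, 80.1 and 89.1 CPM in the primary tumours and 105, 82.7 and 121 CPM in the recurrent tumours, and UBE2V1 at 76.5, 66.2 and 83.9 CPM in the primary tumours and 81.1, 83.8 and 92.5 CPM in the recurrent tumours. The groups overlapped in both genes, and neither passed the test (edgeR adjusted p = 0.589 and 0.676). Salmon divides reads that fit several transcripts by a model, and with all of its bases shared the readthrough count depends on that division, so the gene is uncertain.

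To show where the 2 groups stood furthest apart, protein-coding genes of at least 5 CPM were ranked by the gap between them, the log2 ratio of the lowest tumour of the higher group to the highest tumour of the lower group (with 0.5 CPM added), and the first 15 in each direction are given here. Their separation was the rule that chose them and is a description. The gaps ran from 0.48 to 0.95 among the higher and from 0.51 to 1.07 among the lower genes, and the next genes, PIK3AP1 and PNRC1, had gaps of 0.47 and 0.48. No gene of the 30 passed edgeR (adjusted p from 0.185 to 0.454). By DESeq2 13 of the 15 higher and 14 of the 15 lower genes passed, against 0.41% and 0.261% of all genes given an adjusted p. Without a filter on low counts edgeR called 12 of the 30, against 28 of all 30188 genes. Without recurrent replicate 1 it called 4, namely SPAG17, GLDC, ADGRG6 and PAK3, against 32 of all 16614. The 30 were chosen from the same counts for their separation, so these passes are no added support.

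The gene with the widest gap upward was KCNH5, a voltage-gated potassium channel of the ether-à-go-go family (ENSG00000140015.20, chromosome 14, 62699454 to 63102037, minus strand), at 4.47, 5.07 and 5.45 CPM in the primary tumours and 11.04, 15.1 and 12.8 CPM in the recurrent tumours (log2 fold change 1.38, SE 0.23, edgeR adjusted p = 0.198). The primary values lay close together, and the lowest recurrent tumour, replicate 1, stood above all of them. SPAG17, a protein of the central apparatus of motile cilia, stood at 6.66, 6.76 and 5.53 CPM in the primary tumours and 12.7, 16.9 and 21.8 CPM in the recurrent tumours (log2 fold change 1.44, SE 0.24, edgeR adjusted p = 0.198). GLDC, the decarboxylase that starts glycine cleavage in mitochondria, stood at 14.0, 10.8 and 10.0 CPM in the primary tumours and 24.9, 48.1 and 36.6 CPM in the recurrent tumours (log2 fold change 1.66, SE 0.24, edgeR adjusted p = 0.185), lowest again in recurrent replicate 1 among the recurrent tumours. PRSS12, the extracellular serine protease neurotrypsin, stood at 67.7, 48.7 and 66.2 CPM in the primary tumours and 127, 112 and 133 CPM in the recurrent tumours (log2 fold change 1.02, SE 0.15, edgeR adjusted p = 0.185).

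Of the other genes of the 15, PCLO, the presynaptic scaffold piccolo, stood at 13.1, 6.50 and 11.1 CPM in the primary tumours and 24.3, 24.7 and 21.8 CPM in the recurrent tumours. DNAJC6 (auxilin), a cochaperone that uncoats clathrin vesicles, stood at 8.89, 6.38 and 7.94 CPM in the primary tumours and 13.5, 17.3 and 16.8 CPM in the recurrent tumours. HTR1D, a serotonin receptor coupled to inhibitory G proteins, stood at 3.58, 2.91 and 2.60 CPM in the primary tumours and 5.55, 10.8 and 7.70 CPM in the recurrent tumours. Their log2 fold changes were 1.20 (SE 0.24), 1.04 (SE 0.21) and 1.42 (SE 0.31). PKP2, a plakophilin of desmosomes, stood at 18.5, 17.5 and 18.9 CPM in the primary tumours and 28.6, 32.3 and 38.7 CPM in the recurrent tumours. AMOT, the angiomotin scaffold that binds the growth regulator YAP, stood at 173, 144 and 168.3 CPM in the primary tumours and 253, 252 and 280.0 CPM in the recurrent tumours. The YAP-linked kinase NUAK2 stood at 19.8, 22.4 and 21.7 CPM in the primary tumours and 34.7, 41.0 and 32.3 CPM in the recurrent tumours. The recurrent replicates were within a narrow band for AMOT, and the log2 fold changes of the 3 genes were 0.86 (SE 0.16), 0.69 (SE 0.13) and 0.76 (SE 0.16). PAK3, a p21-activated kinase of neurons, stood at 30.4, 22.2 and 26.3 CPM in the primary tumours and 43.1, 66.2 and 56.1 CPM in the recurrent tumours, and ADGRG6, an adhesion G protein-coupled receptor known from Schwann cell myelination, at 10.9, 10.3 and 7.10 CPM in the primary tumours and 15.9, 41.0 and 28.5 CPM in the recurrent tumours. For ADGRG6 recurrent replicate 2 was the highest and replicate 1 the lowest of the recurrent tumours. The remaining genes were MYO5C, EML5 and LONRF3, an unconventional myosin, a microtubule-associated protein and a RING-finger protein, with log2 fold changes of 0.81 (SE 0.15), 1.18 (SE 0.32) and 0.99 (SE 0.27).

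Downward, the widest gap was that of BGN, biglycan, a small leucine-rich proteoglycan that binds collagen (ENSG00000182492.16, chromosome X, 153494939 to 153509554, plus strand), at 69.9, 58.9 and 84.7 CPM in the primary tumours and 22.0, 10.5 and 27.8 CPM in the recurrent tumours (log2 fold change -1.83, SE 0.30, edgeR adjusted p = 0.198). FMOD, fibromodulin, a proteoglycan of the same family, stood at 5.505, 8.32 and 12.04 CPM in the primary tumours and 3.18, 2.48 and 3.09 CPM in the recurrent tumours (log2 fold change -1.58, SE 0.33, edgeR adjusted p = 0.241). COL1A1, a chain of type I collagen, stood at 862, 684 and 1389 CPM in the primary tumours and 478, 399.8 and 276 CPM in the recurrent tumours, and POSTN, the matrix protein periostin, at 714, 778 and 993 CPM in the primary tumours and 399, 501 and 331 CPM in the recurrent tumours. PRELP, another small leucine-rich proteoglycan, was chosen after its values were seen, since its mean was under the 5 CPM limit, and stood at 4.23, 3.76 and 4.79 CPM in the primary tumours and 0.605, 0.495 and 1.12 CPM in the recurrent tumours (log2 fold change -2.52, SE 0.40, edgeR adjusted p = 0.198).

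IGFBP3, which binds insulin-like growth factors in the extracellular space, stood at 528, 388 and 376 CPM in the primary tumours and 92.4, 228 and 159.8 CPM in the recurrent tumours (log2 fold change -1.43, SE 0.28, edgeR adjusted p = 0.222), lowest in recurrent replicate 1. CXCR4, the receptor of the chemokine CXCL12, stood at 6.66, 13.7 and 7.12 CPM in the primary tumours and 4.18, 3.73 and 2.77 CPM in the recurrent tumours, with primary replicate 2 above the other primary tumours. L1CAM, a neural adhesion molecule linked to invasion, stood at 34.4, 23.9 and 21.8 CPM in the primary tumours and 13.6, 11.7 and 11.3 CPM in the recurrent tumours, with primary replicate 1 the highest. The log2 fold changes of CXCR4 and L1CAM were -1.36 (SE 0.34) and -1.13 (SE 0.21). MRAP2, an accessory protein of melanocortin receptors, stood at 8.12, 13.1 and 8.40 CPM in the primary tumours and 3.78, 2.74 and 2.93 CPM in the recurrent tumours. HEPH, the ferroxidase hephaestin, stood at 8.85, 12.8 and 10.1 CPM in the primary tumours and 4.59, 4.84 and 3.53 CPM in the recurrent tumours. SLC29A4, a transporter of monoamines, stood at 15.1, 11.9 and 13.3 CPM in the primary tumours and 6.40, 5.56 and 7.22 CPM in the recurrent tumours. These 3 genes had log2 fold changes of -1.65 (SE 0.29), -1.29 (SE 0.25) and -1.07 (SE 0.22). SYTL2, which tethers secretory vesicles, and SEPTIN4, a filament-forming GTPase, had -0.86 (SE 0.18) and -1.04 (SE 0.22). DLG4, the postsynaptic scaffold PSD-95, had -0.75 (SE 0.17). The remaining genes were DNAAF4, an assembly factor of ciliary dynein, at -1.36 (SE 0.45), and the cancer-testis antigen MAGEA2B at -1.25 (SE 0.32). MAGEA2B has a near-identical copy and DNAAF4 overlaps a readthrough gene, so both counts depend on how shared reads were divided.

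**Figure D2:**
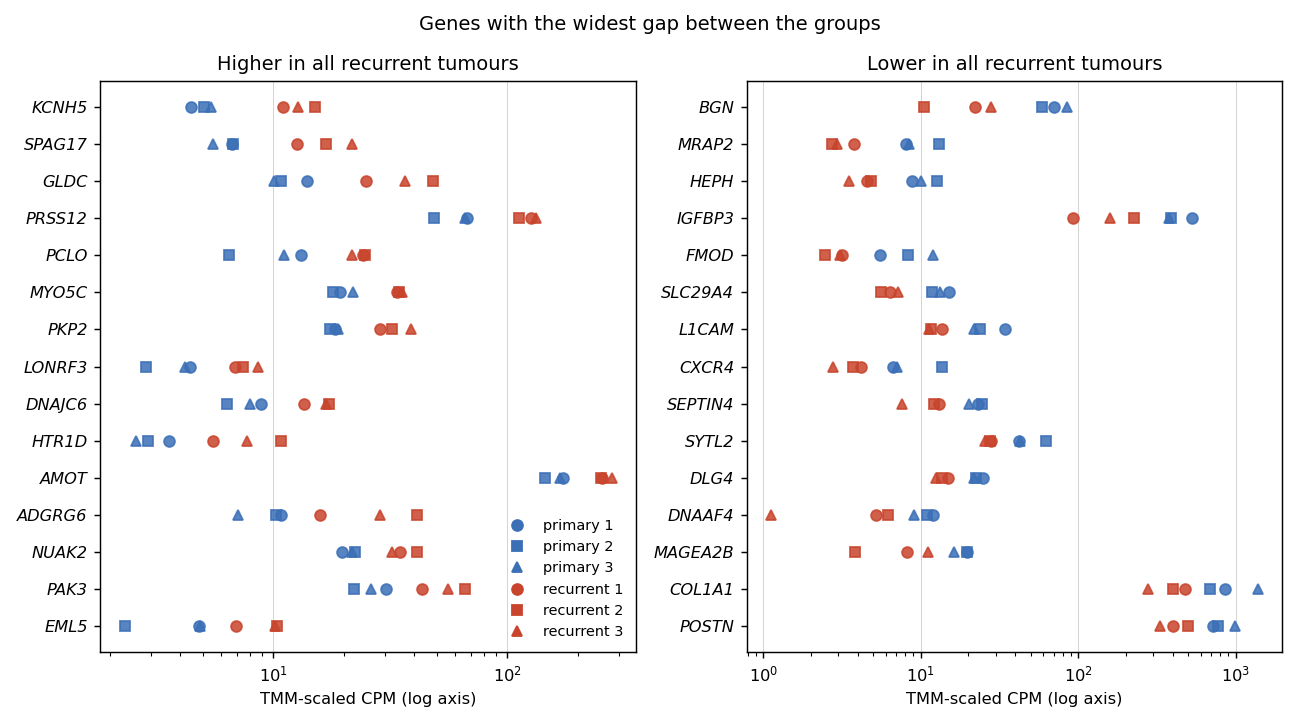
TMM-scaled CPM (log axis) of the 15 genes with the widest gap in each direction, 1 point per tumour, blue for primary and red for recurrent, with the marker giving the replicate. In each gene all red points lie on one side of all blue points, as the rule required; KCNH5 stood at 4.47, 5.07 and 5.45 CPM in the primary tumours and 11.04, 15.1 and 12.8 CPM in the recurrent tumours.

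Host reads could add to such values, so the 3 control brains, labelled procedural or failed-graft, were read for the same genes. For 28 of the 30 genes control replicates 1 and 2 held at most 36 counts in libraries of 1358753 and 1702196 counts, of which structural small RNAs made up 92.6% and 89.8%, so few counts were left for other genes. The exceptions were COL1A1, with 6 and 103 counts, and DLG4, with 135 and 97 counts. Control replicate 3, a library of 4158124 counts with 4.9% graft reads per the labels, held 4950.0 counts of MKI67. It held up to 1275 counts for the 28 genes (POSTN), with 735 of BGN, and 11848 for COL1A1. These are counts and not CPM. Per 1000000 counts of that library, COL1A1 and BGN stood above every tumour, and POSTN below every tumour. The culture of the line held BGN at 5.90, COL1A1 at 17.2 and POSTN at 227 CPM of its library total. The part of host reads in the tumour values of the 30 genes was not tested.

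Beside the genes with the widest gaps, 38 genes were followed for their role in glioblastoma or in heat injury. CDKN2A, MGMT, PROM1, OLIG2 and MMP9 did not pass the filter on low counts, each under 1 CPM in every tumour. Of the 33 tested, 16 had a log2 fold change above 0 and 17 below. The groups did not overlap in 6 higher and 5 lower genes of the 33, against 7.94% and 7.42% of all tested genes. An unadjusted p under 0.05 was found for 5 of the higher and 7 of the lower genes, against 5.08% and 4.2% of all tested genes. None passed edgeR or limma-voom after adjustment, and 3 passed DESeq2, namely COL1A1 (adjusted p = 3.58e-05), GFAP (0.00033) and PDGFRA (0.022). For 20 of the 33 the 95% interval lay within a 2-fold change either way.

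The proliferation markers MKI67 and TOP2A were among the 6 higher. MKI67, the nuclear antigen Ki-67 of cycling cells, stood at 936, 535 and 1117 CPM in the primary tumours and 1252, 1470.5 and 1339 CPM in the recurrent tumours (log2 fold change 0.65, SE 0.26, edgeR adjusted p = 0.512). Primary replicate 2 was the lowest, and every recurrent tumour stood above every primary tumour. TOP2A, the topoisomerase of dividing cells, stood at 438, 396 and 468 CPM in the primary tumours and 479, 581 and 552 CPM in the recurrent tumours, with a log2 fold change of 0.31 (95% interval -0.02 to 0.64). PDGFRA, the receptor of platelet-derived growth factors, stood at 73.4, 77.8 and 89.4 CPM in the primary tumours and 105, 148 and 135 CPM in the recurrent tumours (log2 fold change 0.69, SE 0.16, edgeR adjusted p = 0.302). MET, the hepatocyte growth factor receptor, stood at 94.97, 83.8 and 85.2 CPM in the primary tumours and 108, 136 and 128 CPM in the recurrent tumours (log2 fold change 0.50, SE 0.13, edgeR adjusted p = 0.373). EGFR, the receptor most often amplified in glioblastoma, stood at 136, 85.7 and 124 CPM in the primary tumours and 141, 122 and 128 CPM in the recurrent tumours with overlapping groups and a log2 fold change of 0.18 (95% interval -0.20 to 0.56). CDKN1A, the p21 inhibitor of cyclin-dependent kinases and a target of p53, stood at 11.2, 9.84 and 8.67 CPM in the primary tumours and 13.0, 15.5 and 19.4 CPM in the recurrent tumours (log2 fold change 0.69, SE 0.21, edgeR adjusted p = 0.454). CD274, the checkpoint ligand PD-L1, stood at 37.0, 38.8 and 38.1 CPM in the primary tumours and 41.9, 60.0 and 48.1 CPM in the recurrent tumours (log2 fold change 0.40, SE 0.16, edgeR adjusted p = 0.512), and recurrent replicate 2 was the highest.

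The groups overlapped in the 3 heat shock genes followed as markers of heat stress. HSPA1A, the inducible HSP70 chaperone, stood at 11.01, 3.13 and 14.6 CPM in the primary tumours and 18.4, 14.5 and 12.5 CPM in the recurrent tumours, a log2 fold change of 0.64 (95% interval -0.28 to 1.56). Primary replicate 2 was far below the other tumours, and HSPA1A has a near-identical neighbour, HSPA1B, so its count depends on how shared reads were divided. HSPB1, the small chaperone HSP27, stood at 529, 423 and 444 CPM in the primary tumours and 515, 370.3 and 331 CPM in the recurrent tumours, a log2 fold change of -0.20 (95% interval -0.61 to 0.21). DNAJB1, an HSP40 cochaperone, stood at 238, 208 and 231 CPM in the primary tumours and 251.3, 245 and 192 CPM in the recurrent tumours, a log2 fold change of 0.03 (95% interval -0.29 to 0.35), so that both intervals stayed within a 2-fold change. Over the list of 27 tested heat shock genes, 17 lay above 0 and 10 below, and the median log2 fold change was 0.03, with tumours left out from -0.02 without primary replicate 2 to 0.08 without primary replicate 3. The cochaperone CHORDC1, at 37.0, 34.3 and 49.5 CPM against 49.96, 66.7 and 59.8 CPM, was the only member with an unadjusted p under 0.05.

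Among the genes lower in every recurrent tumour were the HIF targets VEGFA and CA9, GFAP, VIM and COL1A1. GFAP, which encodes the filament protein that defines astrocytes, stood at 447, 575 and 581 CPM in the primary tumours and 302, 275 and 336 CPM in the recurrent tumours (log2 fold change -0.81, SE 0.16, edgeR adjusted p = 0.222). VIM, the filament of mesenchymal and glial cells, stood at 3478, 3789.9 and 3731 CPM in the primary tumours and 3083, 2978 and 2693 CPM in the recurrent tumours, a log2 fold change of -0.33 (95% interval -0.87 to 0.21). The mesenchymal marker CD44 and the progenitor markers SOX2 and NES had intervals within a 2-fold change, with log2 fold changes of 0.06 (95% interval -0.43 to 0.54), -0.04 (95% interval -0.47 to 0.40) and 0.14 (95% interval -0.37 to 0.64). CXCL8, the chemokine interleukin-8, an attractant of neutrophils, stood at 49.0, 69.9 and 20.6 CPM in the primary tumours and 6.50, 51.9 and 10.3 CPM in the recurrent tumours. Its interval, -2.44 to 0.43 on the log2 scale, was wide and included 0. IL6 and CCL2, an inflammatory cytokine and a monocyte chemokine, had log2 fold changes of 0.17 (95% interval -0.58 to 0.92) and 0.16 (95% interval -0.36 to 0.67).

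**Figure D3:**
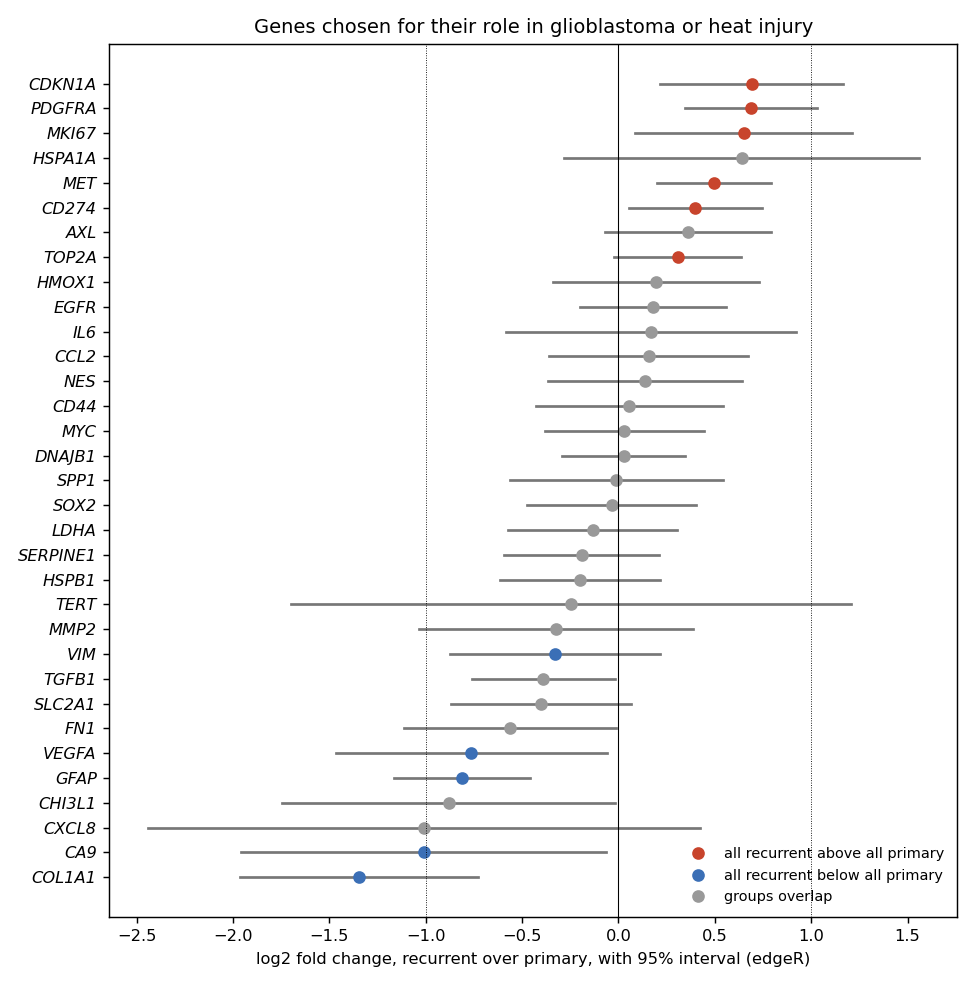
Log2 fold change, recurrent over primary, with its 95% interval (edgeR) for the 33 tested genes chosen for their role. Points are red where all recurrent tumours stood above all primary tumours (6 genes), blue where all stood below (5 genes) and grey where the groups overlap, and dotted lines mark a 2-fold change.

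Genes were then read in 37 lists of pathways, complexes and cell states. No list member passed edgeR's adjusted threshold. Counts and medians are given for each list beside those of all tested genes, of which 49.1% lay above 0, with an unadjusted p under 0.05 in 5.08% (higher) and 4.2% (lower), and a median of -0.01. Per tumour, a list's level is the median over its members of the deviation from the 6-tumour mean on the log2(CPM + 0.5) scale.

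The hypoxia response had the lowest median. Of 24 tested genes, 23 lay below 0 and 1 above, 8 were lower at an unadjusted p under 0.05, and the median log2 fold change was -0.46. VEGFA, the main angiogenic factor, stood at 742, 846 and 732 CPM in the primary tumours and 225, 699 and 443 CPM in the recurrent tumours (log2 fold change -0.76, SE 0.32, edgeR adjusted p = 0.52). CA9, the carbonic anhydrase that acidifies hypoxic tissue, stood at 81.6, 106 and 86.5 CPM in the primary tumours and 14.5, 78.7 and 42.6 CPM in the recurrent tumours (log2 fold change -1.01, SE 0.43, edgeR adjusted p = 0.526). LOX, the oxidase that crosslinks collagen, stood at 102, 106 and 90.6 CPM in the primary tumours and 31.6, 65.2 and 45.3 CPM in the recurrent tumours (log2 fold change -1.07, SE 0.22, edgeR adjusted p = 0.235). In each of these genes recurrent replicate 1 was the lowest tumour and recurrent replicate 2 the closest to the primary tumours. P4HA1, a collagen prolyl hydroxylase subunit, and EPAS1, which encodes HIF-2α, had log2 fold changes of -0.68 (SE 0.19) and -1.11 (SE 0.34). The list's deviation was 0.25, 0.50 and 0.27 in the primary tumours and -1.10, 0.39 and -0.19 in the recurrent tumours, so recurrent replicate 2 lay above 2 of the primary tumours. With each tumour left out in turn the median ran from -0.97 without recurrent replicate 2 to -0.24 without recurrent replicate 1. Recurrent replicate 1 also had the lowest graft percentage of the 6 tumours, 29.44%, and its part in the result was not tested. After adjustment for graft percentage the median was -0.30.

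**Figure D4:**
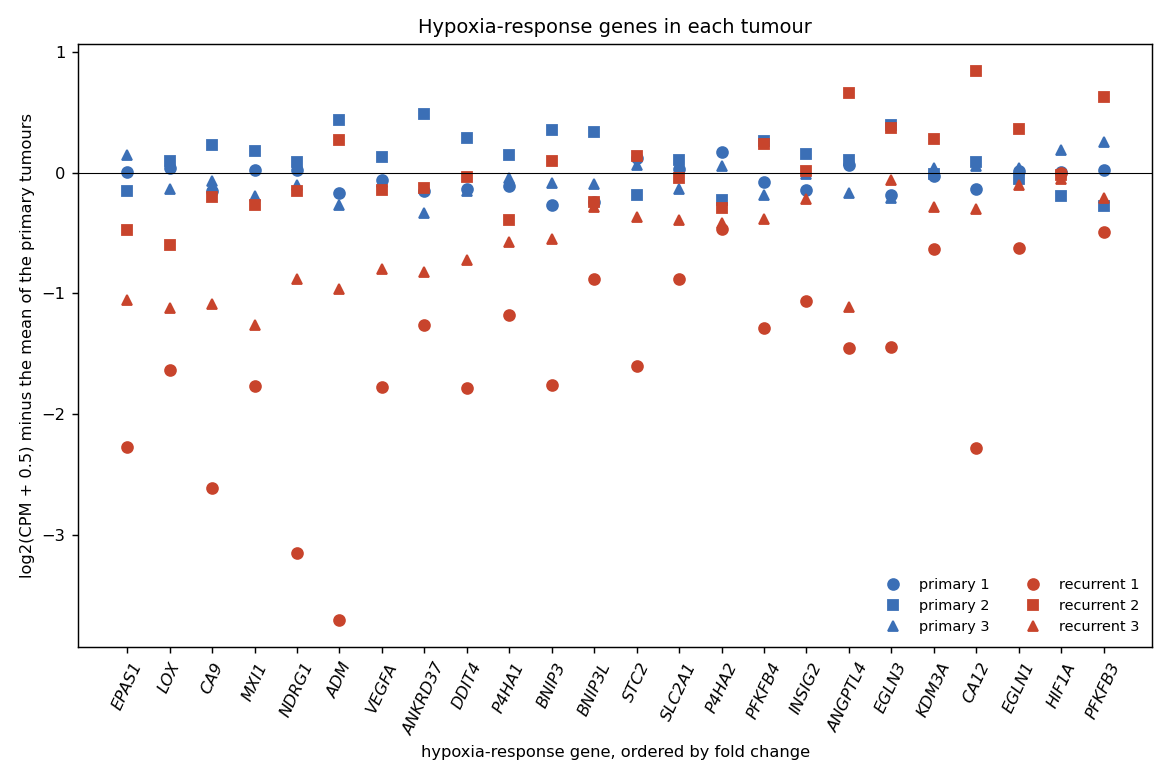
Each hypoxia-response gene (horizontal axis, ordered by fold change) in each tumour, as log2(CPM + 0.5) minus the mean of the primary tumours. Recurrent replicate 1 (red circles) lies lowest in most genes and recurrent replicate 2 (red squares) near the primary tumours; CA9 stood at 81.6, 106 and 86.5 CPM in the primary tumours and 14.5, 78.7 and 42.6 CPM in the recurrent tumours.

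Glycolysis and lactate genes, many of them HIF targets as well, lay below 0 in 19 of 22 (median -0.20), with 1 at an unadjusted p under 0.05. That gene, PGK1, phosphoglycerate kinase, stood at 1635, 2867 and 2053 CPM in the primary tumours and 916, 1696 and 1298 CPM in the recurrent tumours, where recurrent replicate 2 reached into the primary range. The glucose transporter SLC2A1 stood at 806, 846 and 717 CPM in the primary tumours and 427, 765 and 601 CPM in the recurrent tumours (log2 fold change -0.40, SE 0.21), also lowest in recurrent replicate 1. With tumours left out in turn the median ran from -0.34 without recurrent replicate 2 to -0.12 without recurrent replicate 1. Angiogenic factors were mixed, with 9 above and 10 below 0. FGF2, basic fibroblast growth factor, stood at 36.7, 29.1 and 32.8 CPM in the primary tumours and 45.8, 72.9 and 73.2 CPM in the recurrent tumours (log2 fold change 0.96, SE 0.19, edgeR adjusted p = 0.222). The placental growth factor gene PGF stood in the opposite order, at 9.66, 12.3 and 6.63 CPM in the primary tumours and 2.67, 6.55 and 5.37 CPM in the recurrent tumours, with a log2 fold change of -0.94 (SE 0.35).

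The astrocyte-like state had 19 of 21 tested genes below 0, a median of -0.42, and 5 lower and 1 higher at an unadjusted p under 0.05. FABP7, the brain fatty acid-binding protein, stood at 318, 726 and 369 CPM in the primary tumours and 232, 209 and 225 CPM in the recurrent tumours (log2 fold change -1.08, SE 0.27, edgeR adjusted p = 0.34), highest in primary replicate 2. EDNRB, the endothelin B receptor, stood at 24.9, 21.2 and 25.6 CPM in the primary tumours and 17.3, 7.70 and 10.7 CPM in the recurrent tumours (log2 fold change -1.02, SE 0.26, edgeR adjusted p = 0.373). NTRK2, the receptor of brain-derived neurotrophic factor, stood in the other direction at 38.7, 27.8 and 35.0 CPM in the primary tumours and 32.5, 97.8 and 82.8 CPM in the recurrent tumours with overlapping groups (log2 fold change 1.07, SE 0.32). The list's deviation was between 0.12 and 0.25 in the primary and between -0.28 and -0.18 in the recurrent tumours, without overlap. With tumours left out the median ran from -0.54 without primary replicate 2 to -0.29 without primary replicate 3. Markers of rat astrocytes summed to 992 to 1169.9 CPM in primary and 678 to 858 CPM in recurrent tumours. The line shares several of them, so the sum does not measure host cells alone. Its culture held GFAP at 138, FGFR3 at 69.4, SLC1A3 at 42.1 and S100B at 6.55 CPM of the library total. Of the 10 markers, GFAP, the connexin GJA1 (295 to 437 CPM), the glutamate transporter SLC1A3 (63.7 to 125 CPM), S100B and FGFR3 (13.3 to 19.5 CPM) were above 10 CPM in every tumour, while AQP4, ALDH1L1 and GJB6 stood under 1 CPM in all. By the graft percentage the recurrent tumours held more host reads, apart from the overlap given above. The part of host cells in the result was not tested.

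Of the other glioblastoma states, the mesenchymal-like list had a median of -0.05 over 28 genes, the oligodendrocyte-progenitor-like list -0.04 over 11 and the neural-progenitor-like list 0.05 over 15. Each of these medians changed sign with single tumours left out. They ran from -0.21 without recurrent replicate 2 to 0.03 without primary replicate 2, from -0.28 without recurrent replicate 3 to 0.18 without recurrent replicate 2 and from -0.01 without recurrent replicate 1 to 0.12 without primary replicate 3, respectively. TGFBI, a matrix protein of the mesenchymal-like list, stood at 1793, 2137 and 2641 CPM in the primary tumours and 1379.7, 1457 and 1199 CPM in the recurrent tumours (log2 fold change -0.70, SE 0.22, edgeR adjusted p = 0.454). CHI3L1, a secreted glycoprotein used as a mesenchymal marker, stood at 13.8, 5.36 and 8.13 CPM in the primary tumours and 4.44, 7.20 and 3.13 CPM in the recurrent tumours, and the groups overlapped. ELAVL4, a neuronal RNA-binding protein, and NREP had log2 fold changes of 1.90 (SE 0.56) and -0.57 (SE 0.15), in opposite directions within one list. ELAVL4 was low, at 0.885, 0.718 and 0.147 CPM in the primary tumours and 2.02, 1.91 and 2.09 CPM in the recurrent tumours. It had 0 counts in the culture of the line and 302, 207 and 256 counts in the control brains. The part of host reads in its tumour values was not tested. Among 18 neural stem cell factors, 10 lay above and 8 below 0, and ZEB1, a repressor of epithelial genes, had -0.52 (SE 0.17).

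Matrix glycoproteins, proteoglycans and crosslinkers lay below 0 in 17 of 25 (median -0.17), with 7 lower and 0 higher at an unadjusted p under 0.05. Beside BGN, POSTN and LOX these included LOXL2, a lysyl oxidase, at 506, 365 and 489 CPM in the primary tumours and 218, 298 and 291 CPM in the recurrent tumours (log2 fold change -0.75, SE 0.18, edgeR adjusted p = 0.323). FN1, fibronectin, stood at 860.4, 561 and 911 CPM in the primary tumours and 553, 666 and 360.5 CPM in the recurrent tumours, where the groups overlapped. After adjustment for graft percentage the list's median was 0.00, and it ran from -0.29 without recurrent replicate 1 to -0.04 without primary replicate 3. Collagen chains did not share one direction: 9 lay above and 10 below 0 (median -0.07). That median depended on single tumours, from -0.35 without primary replicate 2 to 0.10 without primary replicate 1. Opposite to COL1A1, the basement membrane chains COL4A5 and COL4A6 had log2 fold changes of 0.69 (SE 0.25) and 0.96 (SE 0.40), and COL11A1, a fibrillar chain, stood at 539, 390.0 and 651 CPM in the primary tumours and 541, 979 and 866 CPM in the recurrent tumours. Their groups overlapped in each case. MMP14, the membrane-bound collagenase, was the only one of 20 matrix proteases and inhibitors with an unadjusted p under 0.05, at a log2 fold change of -0.61 (SE 0.24). Integrins and adhesion receptors had 9 above and 11 below 0.

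Mitosis and spindle genes lay above 0 in 21 of 25 (median 0.18), 6 of them at an unadjusted p under 0.05, and in 10 all recurrent tumours stood above all primary tumours, as did 7.94% of all tested genes. CENPF, a kinetochore protein, stood at 439, 336 and 409 CPM in the primary tumours and 510.2, 614 and 564 CPM in the recurrent tumours (log2 fold change 0.51, SE 0.16, edgeR adjusted p = 0.454). ASPM, a spindle pole protein, stood at 149, 114 and 145 CPM in the primary tumours and 156, 219 and 208 CPM in the recurrent tumours (log2 fold change 0.51, SE 0.16, edgeR adjusted p = 0.454). Other members differed little: CCNB1, CCNB2, CDK1 and AURKA had overlapping groups and log2 fold changes of -0.03, -0.06, 0.05 and 0.07. With tumours left out the median ran from 0.13 without recurrent replicate 3 to 0.22 without recurrent replicate 1. The list's deviation was -0.14, -0.08 and -0.05 in the primary tumours and -0.09, 0.15 and 0.17 in the recurrent tumours. Recurrent replicate 1 thus lay inside the primary range. The higher level of recurrent replicates 2 and 3 cannot be told apart from the library name prefix. With the prefix in the fit the mitosis median was 0.09. DNA replication genes lay above 0 in 19 of 24 (median 0.10) and DNA repair and checkpoint genes in 18 of 23 (median 0.18). CHEK1, the kinase of the replication checkpoint, stood at 33.9, 36.6 and 35.0 CPM in the primary tumours and 42.6, 46.7 and 49.1 CPM in the recurrent tumours (log2 fold change 0.39, SE 0.13, edgeR adjusted p = 0.457). Their medians ran from 0.07 without primary replicate 1 to 0.15 without primary replicate 3, and from 0.15 without primary replicate 2 to 0.23 without recurrent replicate 1. The DNA replication deviation was -0.07 in recurrent replicate 1, inside the primary range of -0.09 to 0.01. It was 0.05 and 0.10 in recurrent replicates 2 and 3. With the prefix in the fit the medians were 0.004 for DNA replication and 0.06 for DNA repair. The cyclin gene CCND1 stood at 209, 144 and 146 CPM in the primary tumours and 239, 234 and 280.2 CPM in the recurrent tumours, with a log2 fold change of 0.59 (SE 0.17), while its partner kinase CDK4 had -0.35 (SE 0.15) and the inhibitor CDKN1B had -0.30 (SE 0.13).

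Targets of the p53 stress response lay above 0 in 16 of 20 (median 0.15) and apoptosis genes in 14 of 20 (median 0.13). With tumours left out the medians ran from 0.10 without recurrent replicate 3 to 0.19 without recurrent replicate 1 and from 0.08 without primary replicate 3 to 0.21 without primary replicate 2. FDXR, a mitochondrial reductase, stood at 12.2, 13.1 and 10.9 CPM in the primary tumours and 14.5, 20.2 and 15.8 CPM in the recurrent tumours (log2 fold change 0.48, SE 0.20), and CFLAR, which restrains caspase-8, at 38.3, 36.3 and 38.4 CPM in the primary tumours and 46.4, 61.2 and 48.6 CPM in the recurrent tumours (log2 fold change 0.47, SE 0.15). CFLAR and XIAP (0.39 (SE 0.17)) block caspases, whereas APAF1 (0.49 (SE 0.19)) activates them. Genes of the unfolded protein response lay below 0 in 15 of 20 (median -0.08, with tumours left out from -0.10 without primary replicate 1 to -0.05 without primary replicate 2). DDIT3, the stress factor CHOP, stood at 20.6, 31.5 and 19.1 CPM in the primary tumours and 10.4, 17.6 and 14.3 CPM in the recurrent tumours (log2 fold change -0.74, SE 0.25, edgeR adjusted p = 0.454), highest in primary replicate 2.

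Growth factor receptors and ligands of glioblastoma lay above 0 in 14 of 23 (median 0.15), and 7 of those above 0 and 2 of those below had an unadjusted p under 0.05. The median ran from 0.09 without primary replicate 3 to 0.31 without primary replicate 1. Those higher included PDGFRA, MET and FGF2. ERBB3, the kinase-impaired receptor of neuregulins, stood in the other direction at 2.31, 1.99 and 4.82 CPM in the primary tumours and 0.958, 0.648 and 0.642 CPM in the recurrent tumours (log2 fold change -2.08, SE 0.50, edgeR adjusted p = 0.323). TGF-beta and BMP genes were split 13 to 11. The receptor TGFBR2 stood at 64.8, 49.5 and 70.04 CPM in the primary tumours and 88.6, 93.3 and 97.2 CPM in the recurrent tumours (log2 fold change 0.60, SE 0.15, edgeR adjusted p = 0.35), while the ligand TGFB1 stood at 261, 239.7 and 275 CPM in the primary tumours and 248, 181 and 163 CPM in the recurrent tumours, where recurrent replicate 1 overlapped the primary tumours. Notch and Wnt genes lay below 0 in 16 of 25 (median -0.06, with tumours left out from -0.26 without recurrent replicate 1 to -0.02 without primary replicate 1). HEY1, a Notch target, had -0.55 (SE 0.15) and the ligand WNT5A -0.73 (SE 0.24), whereas DKK1, a secreted Wnt inhibitor, had 0.92 (SE 0.36). The matricellular genes CCN2 and CCN1, listed with wound-response factors, stood at 151, 149 and 152 CPM in the primary tumours and 169.8, 343 and 218 CPM in the recurrent tumours and at 247, 198 and 209.6 CPM in the primary tumours and 285, 298 and 279 CPM in the recurrent tumours. Their log2 fold changes were 0.69 (SE 0.22) and 0.40 (SE 0.14), and recurrent replicate 2 was the highest tumour for both.

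Inflammatory and immune lists had medians between 0.00 and 0.11. Inflammatory cytokines, chemokines and NF-κB targets lay above 0 in 12 of 20, interferon-stimulated genes in 13 of 24, and MHC class I and checkpoint genes in 10 of 20. Leaving out single tumours moved these medians across 0, from -0.25 without recurrent replicate 2 to 0.22 without primary replicate 1 for inflammation, from -0.05 without primary replicate 3 to 0.11 without primary replicate 1 for interferon-stimulated genes and from -0.07 without recurrent replicate 1 to 0.07 without primary replicate 1 for MHC class I and checkpoint genes. The inflammation deviation was -0.39, 0.38 and -0.08 in the recurrent tumours, and 0.23, 0.03 and -0.14 in the primary tumours. NFKB1, a subunit of NF-κB, stood at 61.4, 39.3 and 54.4 CPM in the primary tumours and 63.4, 73.6 and 70.8 CPM in the recurrent tumours (log2 fold change 0.42, SE 0.17). Immediate early factors lay above 0 in 16 of 23 (median 0.13, with tumours left out from -0.04 without recurrent replicate 2 to 0.21 without primary replicate 1). EGR2, a zinc finger factor induced by growth factors, stood at 17.4, 11.5 and 15.3 CPM in the primary tumours and 14.7, 50.2 and 28.6 CPM in the recurrent tumours, with recurrent replicate 1 inside the primary range (log2 fold change 1.08, SE 0.36).

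Of the metabolic lists, cholesterol synthesis lay above 0 in 16 of 23 (median 0.21), 5 at an unadjusted p under 0.05. DHCR7, which makes cholesterol in the last step of one branch, stood at 33.5, 34.5 and 42.3 CPM in the primary tumours and 44.8, 47.2 and 57.2 CPM in the recurrent tumours (log2 fold change 0.44, SE 0.16, edgeR adjusted p = 0.482). The list's deviation was -0.27 in recurrent replicate 1 and 0.34 in recurrent replicate 3, and the median ran from -0.01 without recurrent replicate 3 to 0.36 without recurrent replicate 1. In the glycine and serine list, where GLDC belongs, 9 of 16 lay above 0 (median 0.01, with tumours left out from -0.07 without recurrent replicate 2 to 0.05 without primary replicate 2). GCSH, another protein of the glycine cleavage system, stood in the opposite direction to GLDC, at 38.4, 48.6 and 43.4 CPM in the primary tumours and 35.9, 34.8 and 27.8 CPM in the recurrent tumours (log2 fold change -0.41, SE 0.16). In the NRF2 and ferroptosis list the cystine transporter SLC7A11 stood at 62.5, 54.1 and 52.3 CPM in the primary tumours and 79.1, 76.1 and 96.9 CPM in the recurrent tumours (log2 fold change 0.58, SE 0.14, edgeR adjusted p = 0.35). The ferritin light chain FTL stood at 397, 537 and 358 CPM in the primary tumours and 274, 291 and 282 CPM in the recurrent tumours (log2 fold change -0.61, SE 0.17, edgeR adjusted p = 0.381) and GPX4, which reduces lipid peroxides, had -0.41 (SE 0.15). Efflux and resistance genes had a median of 0.23 over 14, with ALDH1A3, a retinaldehyde dehydrogenase, at 107, 109 and 75.2 CPM in the primary tumours and 90.2, 469.7 and 184 CPM in the recurrent tumours, highest in recurrent replicate 2. The list's median ran from 0.11 without primary replicate 1 to 0.46 without primary replicate 3. Its deviation was -0.19 in recurrent replicate 1, the lowest of the 6 tumours, and 0.26 and 0.14 in recurrent replicates 2 and 3. That difference cannot be told apart from the library name prefix, and with the prefix in the fit the median was -0.12.

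Cytosolic ribosomal proteins lay below 0 in 26 of 26 (median -0.39) and nuclear respiratory chain subunits in 18 of 22 (median -0.22). Primary replicate 2 stood apart in both. Its deviation was 0.65 for ribosomal proteins, where the other 5 tumours lay between -0.21 and -0.02, and 0.46 for respiratory subunits. Without primary replicate 2 the medians were -0.10 and -0.05. The 13 protein-coding genes of mitochondrial DNA all lay above 0 (median 0.22), 1 of them, MT-ATP8, at an unadjusted p under 0.05. MT-ATP8, an ATP synthase subunit whose gene overlaps MT-ATP6, stood at 77.6, 59.8 and 47.5 CPM in the primary tumours and 103, 93.9 and 109.5 CPM in the recurrent tumours (log2 fold change 0.73, SE 0.18, edgeR adjusted p = 0.323). These 13 genes are read from one polycistronic transcript per strand and are not independent. Primary replicate 3 was lowest (deviation -0.49), the median ran from 0.08 without primary replicate 3 to 0.43 without primary replicate 2, and after adjustment for graft percentage it was 0.00. Primary replicate 3 had the highest graft percentage, 64.4%.

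**Figure D5:**
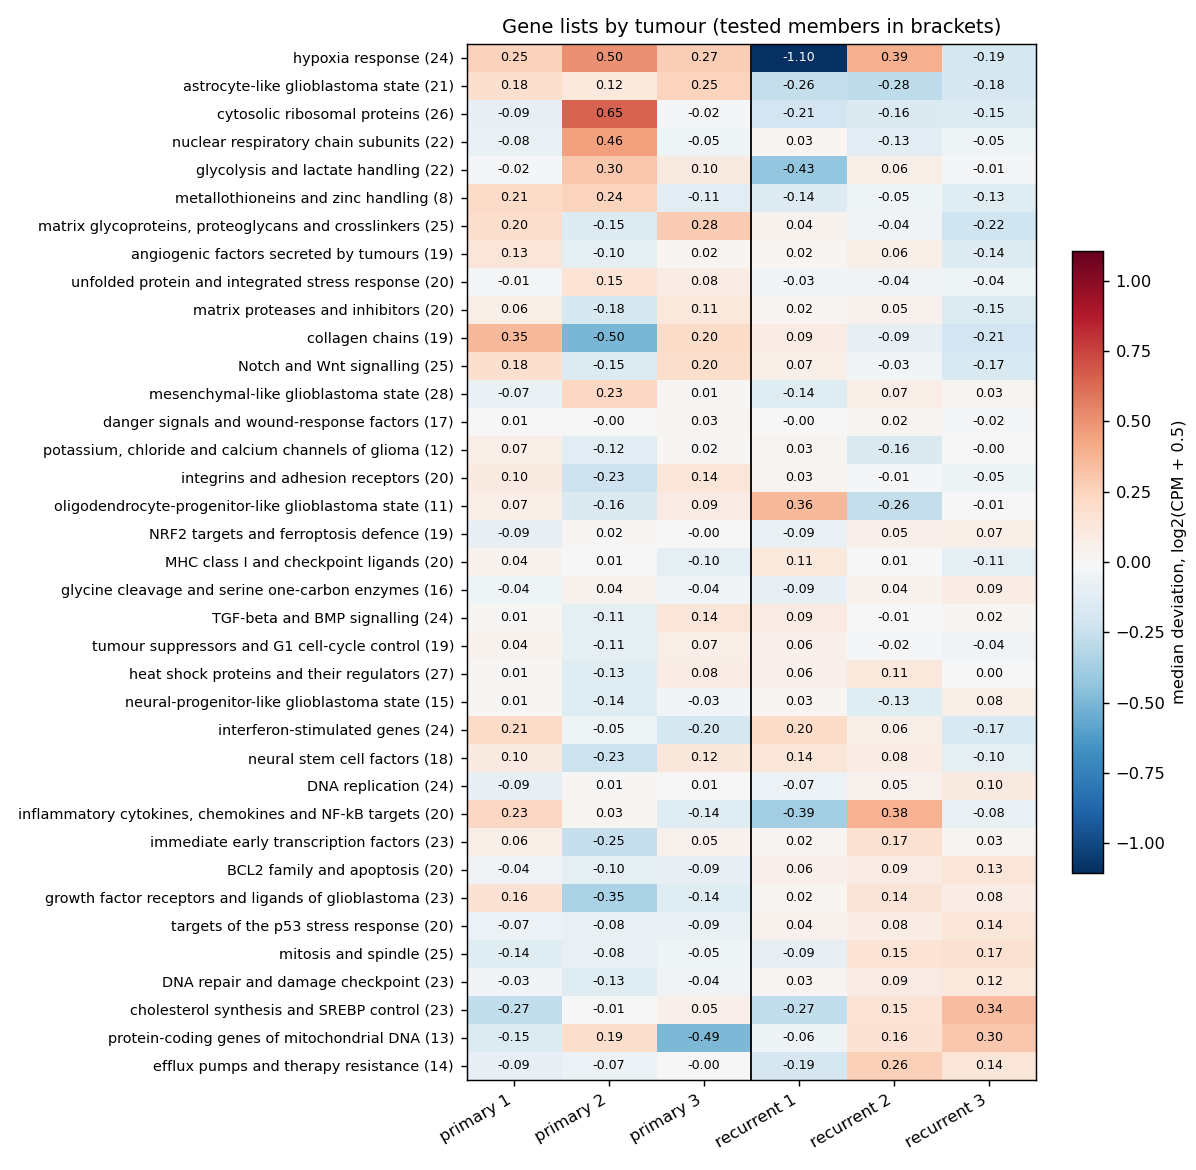
Median deviation of each gene list (rows, tested members in brackets) from the 6-tumour mean in each tumour (columns), on the log2(CPM + 0.5) scale, ordered by the lists' median log2 fold change. Hypoxia response was -1.10 in recurrent replicate 1, and ribosomal proteins were 0.65 in primary replicate 2.

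The lists not yet described had medians of -0.19 for 8 metallothionein and zinc-handling genes, whose close paralogs share reads, -0.05 for 12 ion channels, 0.03 for 19 tumour suppressors and cell-cycle regulators, and -0.05 for 17 danger signals and wound-response factors. With tumours left out they ran from -0.26 without recurrent replicate 2 to -0.13 without primary replicate 2, from -0.08 without recurrent replicate 2 to 0.02 without primary replicate 1, from -0.06 without primary replicate 2 to 0.10 without primary replicate 1 and from -0.08 without recurrent replicate 2 to -0.02 without primary replicate 2, in the same order. The zinc-binding MT1E stood at 43.7, 45.6 and 30.4 CPM in the primary tumours and 29.8, 28.6 and 27.1 CPM in the recurrent tumours, a log2 fold change of -0.48 (SE 0.17). Over 10611 protein-coding genes of at least 5 CPM the median log2 fold change of the 23 nuclear chromosomes ran from -0.06 (chromosome 6) to 0.06 (chromosome X), and the chromosome medians of single tumours deviated by -0.10 to 0.11 from the 6-tumour mean.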

How the data were processed

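RNA was sequenced from brain xenografts as strand-specific, ribosomal-RNA-depleted total RNA libraries, per the labels. The authors deposited estimated counts from Salmon for every gene, unscaled between libraries, of which 10.4% to 13.3% per tumour were fractional. The submitters' processing notes name STAR, Salmon 1.10.3, DESeq2 and GRCh38. Roles of these tools and the annotation release were not given in the sources used here. Gene positions came from GENCODE 29, which matched 58261 of 62754 IDs.

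Counts were rounded and tested in R 4.3.3 by edgeR 4.0.16 (TMM, filterByExpr, quasi-likelihood F test with its current fit, two-sided, no covariates, the 6 tumours only), and p-values were adjusted across the 15928 genes by Benjamini-Hochberg (threshold 0.05). The SE is the size of the log2 fold change divided by the square root of F. DESeq2 1.42.0 and limma 3.58.1 (voom) were alternatives. The test was checked on simulated counts. Limits from a count of 0 (3 counts) cover counting error only.

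Replicates were numbered in record order and pair no samples. Named genes were those past the threshold, the 15 with the widest gap in each direction, genes chosen for their role, and up to 4 members per list with the smallest p, of which a part is printed, and some items are not reported here. The members and lists were chosen with earlier results of these data known.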

Additional observations from a re-analysis of the deposited data

How the results depend on the processing

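No paired analysis was possible because replicate numbers follow record order and the labels pair no tumours. The number of genes called, 1 in the test as reported, was 1 with RLE or upper-quartile scaling, without structural small RNAs, with a transcript length offset and with edgeR's earlier quasi-likelihood fit, which was added after seeing the data. It was 28 without a filter on low counts (16 higher and 12 lower), 0 among genes of at least 5 CPM, where the readthrough gene falls below the limit, 108 with DESeq2, 0 with limma-voom, 0 when graft percentage entered the fit and 3 when the prefix of the library name (IL or NL) did, which compares only recurrent replicate 1 with the primary tumours. Counts at an unadjusted p under 0.05 behind the calls of 0 were 1108, 1412 and 1284. Leaving out each tumour in turn gave 0 to 32 calls. The cause of these differences was not tested, other than by the sets of genes and samples themselves. Of 1897 values for 112 genes under the alternatives, 1874 kept their direction. The 30 genes with the widest gaps kept theirs in all 510, which the rule that chose them largely fixed in advance. With the library prefix the direction turned for HSPB1 (0.15), SOX2 (0.31), CD44 (-0.038), IL6 (-0.83), COL4A6 (-0.24), NTRK2 (-0.058), DKK1 (-0.045), EGR2 (-0.0019), ALDH1A3 (-0.10) and FLG (-0.22). With the graft percentage it turned for CCL2 (-0.40), and with upper-quartile scaling for DNAJB1 (-0.00033). With tumours left out the log2 fold change ran from -0.046 to 0.13 for DNAJB1, -0.25 to 0.13 for SOX2, -0.047 to 0.24 for NES, -0.025 to 0.11 for CD44, -0.23 to 0.48 for IL6 and -0.071 to 0.31 for CCL2. Of the medians of 42 gene and marker lists, at most 8 changed sign when a tumour was left out, 5 with the graft percentage, 11 with the library prefix and at most 4 under the scalings, filters, tools and corrections named above.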

Other observations

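Some genes outside the rules for named genes are given because of their values and were chosen after these were seen, so their differences are descriptions. HTR2A, a serotonin receptor coupled to Gq, stood at 1.23, 3.76 and 3.27 CPM in the primary tumours and 0.151, 0.114 and 0.241 CPM in the recurrent tumours, opposite in order to the serotonin receptor HTR1D. SCN3A, a voltage-gated sodium channel, stood at 1.27, 1.31 and 0.614 CPM in the primary tumours and 2.52, 13.3 and 5.53 CPM in the recurrent tumours, and RYR2, a calcium release channel, at 1.62, 1.94 and 1.08 CPM in the primary tumours and 3.28, 9.83 and 9.38 CPM in the recurrent tumours. In SCN3A the recurrent tumours differed widely, with replicate 2 the highest. NRG1, a ligand of the ERBB3 receptor, stood at 85.6, 51.4 and 77.7 CPM in the primary tumours and 113, 286 and 202 CPM in the recurrent tumours, in the opposite order to ERBB3. The log2 fold changes were -3.997 (SE 0.65), 2.81 (SE 0.59), 2.32 (SE 0.44) and 1.48 (SE 0.30), and none of these genes passed edgeR (adjusted p = 0.185, 0.241, 0.222 and 0.222), while all passed DESeq2 (adjusted p = 5.16e-05, 0.000177, 0.000184 and 4.02e-05). FLG, filaggrin, a keratin-binding protein of the epidermis, stood at 2.54, 13.4 and 1.62 CPM in the primary tumours and 4.89, 182 and 75.0 CPM in the recurrent tumours, high in recurrent replicates 2 and 3 and not in replicate 1, with overlapping groups. That is also the split by library name prefix, from which it cannot be told apart.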
